A study of Mus musculus with 12 samples.

Results

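Distal chromatin with H3K27ac peaks called in the middle of mouse gastrulation, but at neither end of it, comprised 1978 regions. They were chosen from the H3K27ac peak lists of 5 stages: peaks were merged, and a region was kept if it lay over 1 kb from each protein-coding gene end, had no peak at ES and EHF, and had a peak in 2 or more of MS, LS and OB. Merging gave 50341 regions, of which 35208 were distal, so the middle-stage regions made up 5.62% of distal regions. This share was fixed by the rule and is a description. The files give no signal below the peak threshold, so a stage without a peak is not shown to lack the mark.

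The embryos were C57BL/6 embryos staged by morphology, dissociated to single cells and profiled by CoBATCH, which uses antibodies to bring the Tn5 transposase to marked chromatin. Pre_PS embryos (E6.0) had not formed a primitive streak; ES (E6.0 and E6.5), MS (E6.0 and E7.0) and LS (E7.0 and E7.25) embryos had an early, mid and late streak; OB embryos (E7.25 and E7.5) had no allantoic bud and EHF embryos (E7.5) early headfolds. No genetic change or treatment is given for any group, and the labels do not say how many embryos or cells were pooled. Extraembryonic tissue was dissected away from Pre_PS, ES, MS and LS embryos; whether OB and EHF embryos kept it is not stated. With 1 peak list per stage and mark there were no replicates, and no stage difference here carries a replicate error. A peak in a pooled list may come from a weak mark in many cells or a strong mark in few, and these cannot be told apart.

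Gastrulation turns the epiblast into the germ layers, as cells pass through the primitive streak and become mesoderm and endoderm. Enhancers act from a distance on such changes: H3K4me1 marks enhancers that are poised as well as those in use, while H3K27ac is laid down where enhancers and promoters are active and is lost when they fall silent.

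The genome itself was not used here, so sequence is shown only where an annotated RefSeq feature (GRCm38.p6, the assembly that mm10 names) lies in a middle-stage region. Of the 1978 regions, 29 (1.47%, 95% Wilson interval 1.02 to 2.10%) overlapped a promoter window, the 250 bases before to 50 bases after a gene's start; 12 did so for a protein-coding gene and 19 for a long non-coding RNA. Over all distal regions the share was 5.61%, and among the 8262 distal regions with peaks at 2 or 3 of the 5 stages outside the rule it was 2.05% (1.76 to 2.37%). Starts annotated inside a gene can lie far from its outer ends, which is how they enter distal regions. The 4 protein-coding genes with a window wholly inside a region were Esr1 (an oestrogen receptor), Limk1 (a kinase that acts on cofilin), Pafah2 (an acetylhydrolase of platelet-activating factor) and Cfap221 (a cilium protein), shown because theirs are the only protein-coding windows fully covered; of 2 such windows of Pafah2 the first is given. Capitals mark motif matches on either strand. The motifs searched were cores bound by factors that act in gastrulation, and only 1 match lies in these windows, so none overlaps another.
Esr1 window, chr10:4709908-4710207, plus strand: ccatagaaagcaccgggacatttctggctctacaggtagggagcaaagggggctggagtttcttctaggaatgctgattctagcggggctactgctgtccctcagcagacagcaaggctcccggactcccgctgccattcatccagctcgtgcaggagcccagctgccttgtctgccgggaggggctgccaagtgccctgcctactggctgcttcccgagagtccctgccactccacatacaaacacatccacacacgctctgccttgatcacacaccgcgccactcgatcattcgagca
Limk1 window, chr5:134678199-134678498, minus strand: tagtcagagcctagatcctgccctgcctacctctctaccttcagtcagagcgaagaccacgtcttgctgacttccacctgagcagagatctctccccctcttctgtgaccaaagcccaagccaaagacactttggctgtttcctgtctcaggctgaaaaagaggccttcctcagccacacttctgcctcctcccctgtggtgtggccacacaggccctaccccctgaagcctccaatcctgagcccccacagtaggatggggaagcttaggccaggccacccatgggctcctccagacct
Pafah2 window, chr4:134402662-134402961, plus strand: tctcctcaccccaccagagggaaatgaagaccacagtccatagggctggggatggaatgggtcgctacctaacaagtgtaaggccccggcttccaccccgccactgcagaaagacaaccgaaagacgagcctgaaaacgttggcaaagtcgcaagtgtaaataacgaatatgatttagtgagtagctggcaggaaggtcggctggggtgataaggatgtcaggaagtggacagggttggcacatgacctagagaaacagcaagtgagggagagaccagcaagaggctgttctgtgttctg
Cfap221 window, chr1:119997183-119997482, minus strand: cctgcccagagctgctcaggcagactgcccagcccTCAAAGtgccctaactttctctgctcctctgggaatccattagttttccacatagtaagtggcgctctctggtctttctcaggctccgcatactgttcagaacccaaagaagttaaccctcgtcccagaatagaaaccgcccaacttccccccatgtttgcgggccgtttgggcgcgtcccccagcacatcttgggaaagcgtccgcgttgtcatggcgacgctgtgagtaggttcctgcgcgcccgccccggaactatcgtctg

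Among these windows, Cfap221 alone held one of the motifs, the TCF/LEF core starting at base 36. The TCF/LEF core, spelled CTTTGA, lay in 16.0% of all 32851 promoter windows. The T-box core was searched as AGGTGT and lay in 13.7% of windows. For GATA factors the letters were AGATAA, found in 11.2%. The forkhead core TGTTTAC was found in 3.65%. The GC content was 59.3% for Esr1, 58.0% for Limk1, 52.7% for Pafah2 and 57.7% for Cfap221, against a median of 52.7% over all windows. They held 12, 2, 9 and 18 CpG dinucleotides in the same order, against a median of 7, so Limk1 was the one below it.

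The region at the internal Esr1 start (chr10:4709832-4710274) lay 97.8 kb from the nearest gene end. Its H3K27ac peaks had an authors' fold of 5.62 at MS and 5.16 at LS, where the fold is the ratio of fragments to the local background. It carried H3K4me1 from ES to EHF, with folds of 3.58, 4.62, 6.90, 5.89 and 5.68. At Limk1 the H3K27ac folds were 3.30, 3.87 and 3.87 at MS, LS and OB, and that at MS was the lowest of its list. H3K4me1 at Limk1 had no peak at Pre_PS and ES and folds of 3.08, 4.91, 5.44 and 4.62 from MS on. Pafah2 had H3K27ac folds of 4.75, 5.78 and 3.93, with H3K4me1 at ES (5.02), LS (5.71), OB (6.24) and EHF (5.05). Cfap221 had H3K27ac at LS (4.55) and OB (4.30) and H3K4me1 from ES to EHF. Esr1, Pafah2 and Cfap221 thus carried H3K4me1 at ES and EHF, where they had no H3K27ac peak. Folds are the authors' values within 1 list and are not compared between lists.

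MicroRNA hairpins lay in 5 regions (0.253%, 95% Wilson interval 0.108 to 0.590%; 0.329% of all distal regions), 4 of them wholly. MicroRNAs are short RNAs that pair with messenger RNAs through the seed, bases 2 to 8, shown in capitals. The mature sequences of the 4 hairpins wholly inside a region are printed because the region covers the whole hairpin.
miR-7a-5p: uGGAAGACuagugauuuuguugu
miR-7a-2-3p: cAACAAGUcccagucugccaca
miR-218-5p: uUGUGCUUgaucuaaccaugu
miR-218-2-3p: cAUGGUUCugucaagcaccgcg
miR-346-5p: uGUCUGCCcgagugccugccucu
miR-346-3p: aGGCAGGGgcugggccugcagc
miR-5103: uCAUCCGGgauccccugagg
The 7 seeds all differed. Mir346, inside Grid1 (chr14:34894274-34894954), had H3K27ac folds of 5.53 at MS, 6.85 at LS and 4.61 at OB, and H3K4me1 from ES to EHF with folds of 7.29, 7.63, 8.02, 5.39 and 4.62. Mir218-2, inside the guidance gene Slit3 (chr11:35616648-35617174), had H3K27ac at MS (4.48) and LS (3.44) and H3K4me1 at ES (3.87), MS (5.84) and OB (4.02). Mir7-2 (chr7:78887961-78889039) had H3K27ac at MS (3.30, the lowest fold of that list), LS (4.05) and OB (4.40), and H3K4me1 at all 6 stages. Its H3K4me1 fold at Pre_PS (1.97) was also the lowest of its list. Mir5103 (chr1:34432866-34433240) had H3K27ac at LS (3.82) and OB (4.67) and H3K4me1 from MS on. The other hairpin, Mir7063 inside Ap2a2, was covered in part, and its mature miR-7063-3p, which lay wholly in the region, is not printed.

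Of the 4 combinations that meet the rule, LS and OB without MS was the most frequent. It held 968 regions (48.9%), MS and LS 454 (23.0%), MS and OB 209 (10.6%), and all 3 stages 347 (17.5%). Of the regions, 1010 had a peak at MS, 1769 at LS and 1524 at OB, which were 6.25, 7.28 and 7.73% of the distal regions with a peak at that stage. The lists differed in length along with these counts, with 36930 peaks at ES, 30072 at MS, 39635 at LS, 34823 at OB and 33031 at EHF, so that MS had the shortest list and LS the longest; the part of list length was not tested beyond the alternative with equal numbers of peaks given further on.

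Patterns outside the rule were set beside these counts. Among the 10 patterns with a peak at 2 of the 5 stages, LS and OB came after ES and LS, stages that are not neighbours, with 1354 regions. MS and LS (454) lay between ES and MS (524) and ES and EHF (406), and MS and OB (209) had only MS and EHF (165) below it. Patterns with 3 stages ran from 70 to 1020 regions, and MS, LS and OB, with 347, lay between ES, MS and LS (588) and ES, OB and EHF (259). ES and EHF, the opposite of the rule, is the pattern with 406. Within 1 kb of gene ends, 160 of 15133 regions (1.06%) had the stages of the rule.

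**Figure D1:**
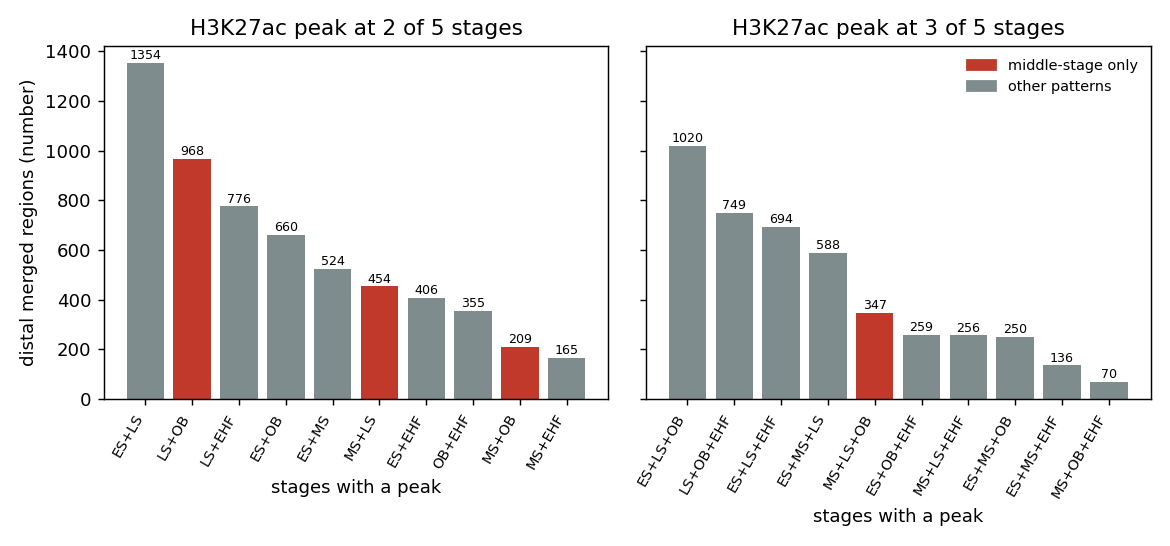
Number of distal merged regions (y axis) for each combination of 2 or 3 stages with an H3K27ac peak (x axis), with the 4 combinations of the rule in red. Among pairs, LS and OB (968) stood below ES and LS (1354) alone, and MS, LS and OB (347) in the middle of the patterns with 3 stages.

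The H3K27ac peaks of these regions were weak in their own lists. Peaks were placed by −log10 q, the caller's significance, as a percentile of their list. The median percentile was 15.4 at MS, 21.0 at LS and 17.0 at OB, against 33.4, 36.4 and 35.7 for all other distal regions with a peak there. Distal regions with peaks at 2 or 3 stages outside the rule had medians of 15.9, 22.1 and 18. The median fold was 4.12 at MS, 4.14 at LS and 4.15 at OB, and 5.21, 5.20 and 5.30 in the other distal regions. The lowest fold of the lists was 3.30, 3.01 and 3.25, and the highest in a middle-stage region 11.2, 9.15 and 8.30.

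Peaks at the lowest value of their list made up 9.31% of the regions' peaks at MS, 5.99% at LS and 9.19% at OB, against 4.33, 4.26 and 4.42% in other distal regions and 8.90, 5.22 and 7.26% in those with 2 or 3 stages outside the rule. In 29 regions (1.47%) every peak was at the lowest value. A peak in the upper 50% of its list was found at 1 or more middle stages in 74 regions (3.74%), and at 2 or more in 4. The background at the lowest peaks, a guide to depth, was 0.262 fragments at ES, 0.211 at MS, 0.330 at LS, 0.230 at OB and 0.289 at EHF, each with a pileup of 3. With the upper 50% of each list alone, 450 regions met the rule, and 4 of the 1978 were among them. When each list was cut to as many peaks as the shortest, 1415 met it, and 796 of the 1978 (40.2%) remained.

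**Figure D2:**
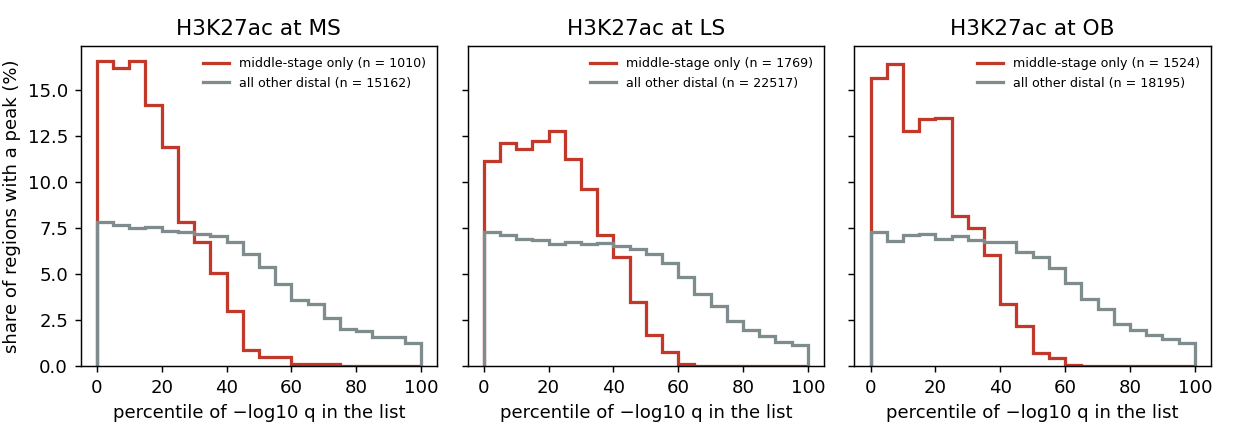
Share of regions with an H3K27ac peak (y axis, %) by the percentile of that peak's −log10 q in its list (x axis, bins of 5), at MS, LS and OB, for middle-stage regions (red) and all other distal regions (grey). The red lines crowd into the low percentiles, with medians of 15.4, 21.0 and 17.0.

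The bases shared by all the peaks of a region made up a median of 64.1% of its width, with quartiles of 48.5 and 77.1%, and 4 regions had no base in common. The median width was 509 bp (quartiles 443 and 628 bp) against 595 bp for the other distal regions. It was 553 bp for distal regions with peaks at 2 or 3 stages outside the rule and 495.5 bp for those at ES and EHF only. The widest middle-stage region measured 3057 bp and lay inside the kinase gene Stk39 (chr2:68345395-68348451), with peaks at MS (fold 3.51) and LS (4.01). It was followed by one of 2701 bp inside Nelfcd, nearest to an end of the protease gene Ctsz (chr2:174421662-174424362), and one of 2517 bp inside the myosin gene Myh14 (chr7:44611307-44613823). The Ctsz region had peaks at LS (5.05) and OB (3.90), and the Myh14 region at MS (4.63), LS (4.43) and OB (3.54).

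The rule excludes overlap with ES and EHF peaks, and the distances to them were not compared with those of other regions. The nearer of the ES and EHF peaks lay a median of 12.4 kb away, and within 1 kb in 12 regions (0.607%). It lay within 5 kb in 589 (29.8%) and over 100 kb away in 204 (10.3%). The nearest distal region with peaks at all 5 stages was a median of 61.9 kb away. Leaving out those within 1 kb left 1966 regions.

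Of the regions, 1049 (53.0%, 95% Wilson interval 50.8 to 55.2%) lay inside a protein-coding gene, against 57.2% of all distal regions and 53.8% (52.7 to 54.8%) of those with peaks at 2 or 3 stages outside the rule. By pattern, 58.5% (55.3 to 61.5%) of LS and OB regions lay in a gene, 53.0% (47.8 to 58.2%) of those with all 3 stages, 48.9% (44.3 to 53.5%) of MS and LS regions and 36.8% (30.6 to 43.6%) of MS and OB regions. The intervals cover counting error only. The median distance to the nearest gene end was 22.7 kb, with quartiles of 7.86 and 72.4 kb, against 18.1 kb in other distal regions and 22.4 kb in those with 2 or 3 stages outside the rule. It was 31.8 kb for MS and LS and also for MS and OB, 19.6 kb for LS and OB, and 16.8 kb for all 3 stages. Over 100 kb from each gene end lay 373 regions (18.9%). Nearest to the 1 kb limit were regions at Adh6a (1.04 kb) and Hdc (1.07 kb) inside the rule, and at Klhl25 (0.992 kb) and Fam187a (0.977 kb) outside it. The Adh6a region had H3K27ac folds of 4.23 at MS and 4.14 at LS. The Hdc region had 3.65 at LS and 3.25 at OB, the latter the lowest fold of its list. Klhl25 had 4.99 at MS and 4.06 at LS, and Fam187a 5.06 at LS and 4.78 at OB.

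H3K4me1, which the rule did not use, was found at most of the regions. At MS, LS or OB it had a peak in 1774 (89.7%, 95% Wilson interval 88.3 to 91.0%), against 85.7% of all distal regions and 91.5% (90.9 to 92.1%) of those with peaks at 2 or 3 stages outside the rule. At ES or EHF, where the rule allows no H3K27ac peak, H3K4me1 was present in 1489 (75.3%, 73.3 to 77.1%; 76.5% of all distal regions). It was at ES and EHF alike in 594 regions (30.0%; 47.1% of all distal regions), at ES but not EHF in 689 (34.8%; 23.5% of all distal regions), and at EHF but not ES in 206 (10.4%; 5.89%). In distal regions with peaks at 2 or 3 stages outside the rule these 3 shares were 35.8, 35.5 and 8.81%. The 406 distal regions with H3K27ac at ES and EHF only had H3K4me1 at MS, LS or OB in 89.7% (86.3 to 92.3%). This was as high as in the middle-stage regions, although no H3K27ac peak lay there at MS, LS and OB. They had H3K4me1 at ES or EHF in 73.2% (68.6 to 77.2%).

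By stage, H3K4me1 peaks lay in 20.6% of the regions at Pre_PS (29.1% of all distal regions), 64.9% at ES (70.6%), 52.8% at MS (62.0%), 68.3% at LS (71.8%), 70.2% at OB (72.8%) and 40.4% at EHF (53.0%). Against the other distal regions the share was lower at each of the 6 stages, with gaps of −9.01, −6.09, −9.71, −3.68, −2.77 and −13.3 percentage points in that order. The gap averaged −5.39 points at MS, LS and OB and −9.46 at Pre_PS, ES and EHF, a difference of 4.07 points (two-sided exact permutation of the 6 libraries, p = 0.3; the smallest p this design allows is 0.1). Each library is a different stage, so this p measures no spread between replicates. The middle and outer stages overlapped, since the gap at MS was wider than that at ES. Against distal regions with peaks at 2 or 3 stages outside the rule the difference turned to −1.17 points, and with covered bases in place of peaks to −1.42. Pre_PS had the lowest background of the H3K4me1 lists at its weakest peaks (0.0144 fragments), and 74.7% of its peaks in these regions were at the lowest value of the list.

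**Figure D3:**
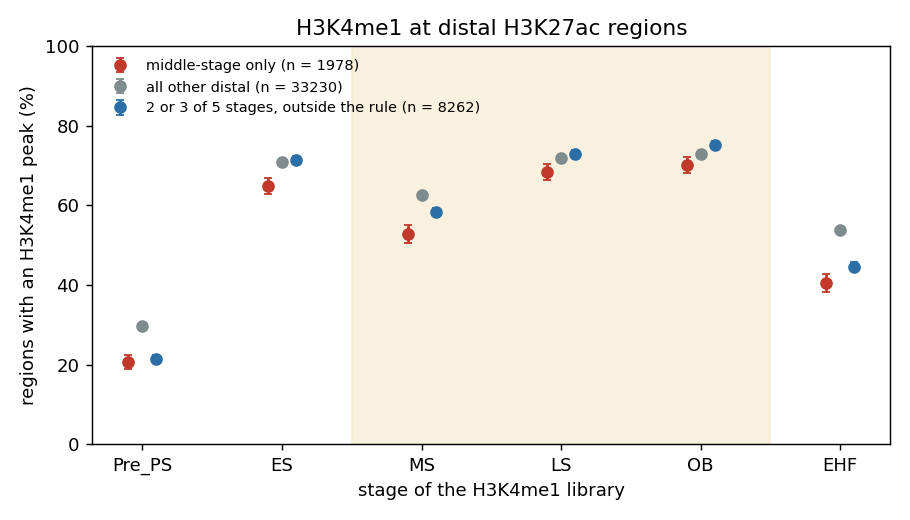
Share of regions with an H3K4me1 peak (y axis, %) at each stage (x axis) for the 1978 middle-stage regions (red), all other distal regions (grey) and distal regions with peaks at 2 or 3 stages outside the rule (blue); bars are 95% Wilson intervals and the shaded stages are MS, LS and OB. The red points lie below the grey ones at each stage, and the 3 groups go up and down together.

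H3K4me1 followed the rule's own pattern, with 2 or more of MS, LS and OB and neither ES nor EHF, in 212 regions (10.7%, 9.43 to 12.2%; 6.79% of all distal regions and 9.77% of those with peaks at 2 or 3 stages outside the rule). It was present at all 5 stages from ES on in 329 (16.6%; 39.3% of all distal regions and 22.5% of those with 2 or 3 stages outside the rule). It appeared at a middle stage after none at Pre_PS and ES in 467 (23.6%; 15.9 and 19.8% in the same groups). In 100 regions (5.06%, 4.17 to 6.11%) H3K4me1 had no peak at any of the 6 stages, a share below the 8.98% of all distal regions and above the 3.59% (3.21 to 4.02%) of those with 2 or 3 stages outside the rule. In the 406 distal regions with H3K27ac at ES and EHF only, these H3K4me1 shares were 13.3% (10.3 to 17.0%), 15.0, 26.4 and 3.94%. The rule's own H3K4me1 pattern was thus no less frequent in them than in the middle-stage regions.

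Regions with stronger H3K27ac had H3K4me1 more often. They were put in 4 nearly equal parts by the percentile that a region reached at 2 or more middle stages, whose median was 12.0. From the weakest to the strongest part, H3K4me1 at a middle stage was found in 80.4% (76.7 to 83.7%), 87.4% (84.2 to 90.1%), 93.7% (91.2 to 95.5%) and 97.2% (95.3 to 98.3%). At ES the shares were 56.0, 64.2, 65.6 and 73.7%, and at EHF 27.1, 37.7, 41.5 and 55.6%. Regions with all 3 middle stages made up 3.64, 13.6, 18.4 and 34.5% of the parts, and 96.5% of such regions had H3K4me1 at a middle stage. Among regions with 2 middle stages alone, the middle-stage shares were 80.1, 86.4, 93.3 and 96.3%, those at ES 55.8, 63.2, 65.0 and 71.3%, and those at EHF 27.3, 36.5, 40.0 and 54.0%. In the strongest part the median distance to a gene end was 16.3 kb, and in the weakest 28.8 kb. Other distal regions were not split in this way, so these trends are not shown to be particular to the middle-stage regions.

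H3K4me1 at a stage was also compared between regions with and without H3K27ac at that stage. At LS, H3K4me1 lay in 70.3% (68.2 to 72.4%) of regions with H3K27ac at LS and in 51.2% (44.5 to 57.9%) of the 209 without it. These 209 all had H3K27ac at MS and OB. They also had less H3K4me1 at MS (44.5 against 53.8%), OB (60.8 against 71.3%) and EHF (31.6 against 41.5%). At Pre_PS and ES they had 22.0 and 64.1%, against 20.4 and 65.0%. For OB the shares at OB were 72.5% (70.2 to 74.7%) with H3K27ac and 62.3% (57.8 to 66.7%) without. The 454 regions without it also had less H3K4me1 at LS (63.0 against 69.9%), where all had H3K27ac, and at EHF (33.9 against 42.4%). At Pre_PS, ES and MS they had 20.7, 61.7 and 52.0%, against 20.5, 65.8 and 53.1%. For LS and OB, the lower shares were thus not confined to the stage without H3K27ac. For MS the shares at MS were 55.0% (51.9 to 58.0%) and 50.6% (47.5 to 53.8%). Regions without a given stage all have 2 middle stages by the rule, while those with it include the 347 regions with 3. Among regions with 2 middle stages alone, the shares with and without H3K27ac were 67.2% (64.7 to 69.6%) and 51.2% at LS, 69.7% (67.0 to 72.2%) and 62.3% at OB, and 49.6% (45.8 to 53.4%) and 50.6% at MS, where the direction turned. Regions with all 3 stages carried H3K4me1 at MS, LS and OB in 65.1, 83.0 and 82.1%.

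Before the streak, 48 of the regions (2.43%, 1.84 to 3.20%) had an H3K27ac peak, against 9.88% of all distal regions and 3.36% (3.00 to 3.78%) of those with peaks at 2 or 3 stages outside the rule. Their median fold at Pre_PS was 3.17, and 15 of the 48 peaks were at the lowest value. The Pre_PS list held 13398 peaks; the part of its length was not tested.

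The 10 regions strongest at 2 or more middle stages included the following. The strongest was inside Grip2, a scaffold for glutamate receptors (chr6:91800483-91801547), with H3K27ac folds of 5.61 at MS, 8.47 at LS and 8.10 at OB. It carried H3K4me1 at all 6 stages. The region near Cotl1, which encodes an actin-binding protein (chr8:119804438-119805071), had folds of 8.33, 5.28 and 6.95 at MS, LS and OB. That near Dusp7, a phosphatase of ERK kinases (chr9:106364286-106364740), had 5.33, 7.43 and 6.93. Ezhip, an inhibitor of Polycomb repressive complex PRC2, had a region 8.60 kb away (chrX:6092016-6092642) with 6.96, 7.20 and 3.61. Grip2, Cotl1, Dusp7 and Ezhip were the 4 with upper 50% peaks at 2 or more stages.

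Next came regions at Phf2, a histone demethylase, with LS and OB folds of 6.63 and 7.43, and inside Syne3, a linker of the nuclear envelope, with 8.39 and 6.65. Mmp9, a protease of the extracellular matrix, had a region 6.19 kb away (chr2:164933631-164934134) with 6.73, 4.91 and 7.56 at MS, LS and OB. A region 39.0 kb from Sox4, a transcription factor of progenitor cells (chr13:28909350-28909926), had 7.86, 6.39 and 4.52, and H3K4me1 from ES to OB but not at EHF. The region inside Niban2 with Lrsam1 as the gene with the nearest end had LS and OB folds of 6.57 and 6.39, and H3K4me1 at MS and EHF only. Of the 10, 7 had peaks at all 3 middle stages, beside 17.5% of the middle-stage regions. Inside a gene lay 4, and 9 carried H3K4me1 at ES and 9 at EHF, beside 57.2, 70.6 and 53.0% of all distal regions. With 10 regions chosen for their strength, nothing is read from these counts.

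**Figure D4:**
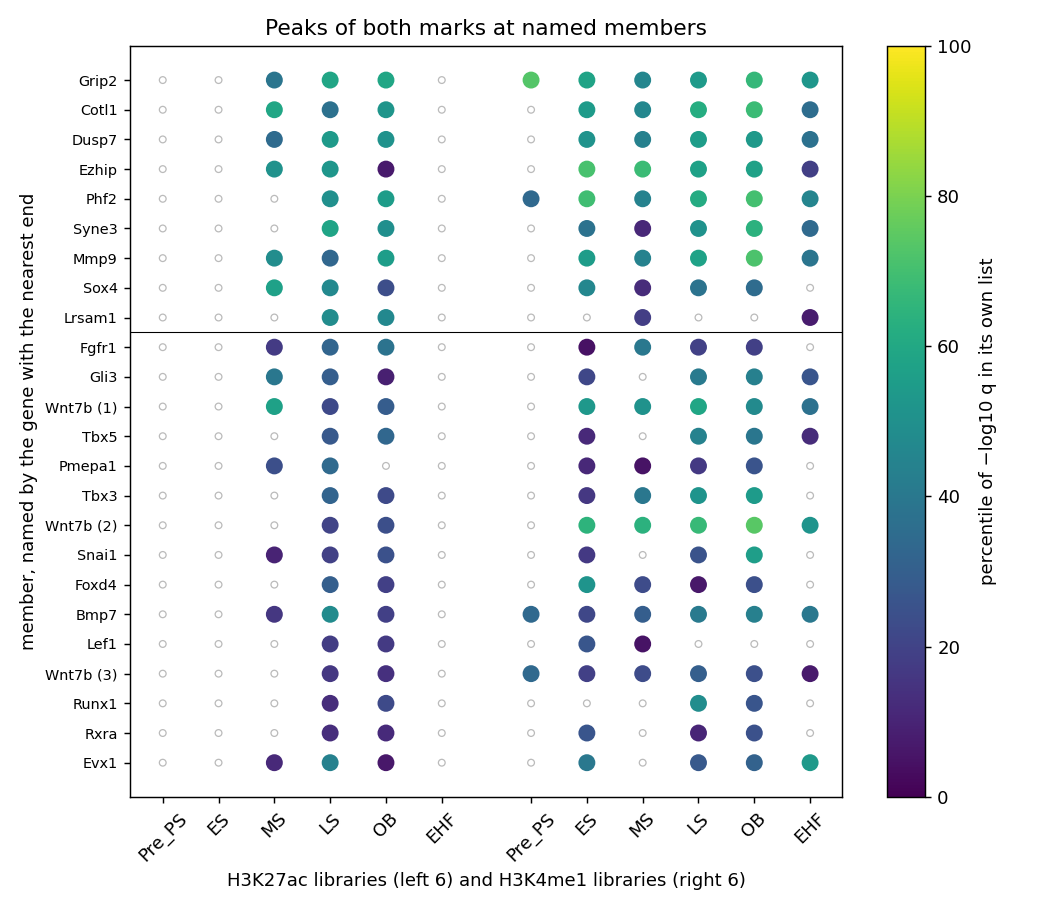
Peaks of H3K27ac (left 6 columns) and H3K4me1 (right 6 columns) at 9 of the 10 strongest regions (above the line) and 15 regions near listed genes (below it), each named by the gene with the nearest end; filled points are peaks coloured by percentile in their own list and small open circles mark no peak. The H3K27ac columns of ES and EHF are empty by the rule, and that of Pre_PS is empty too. H3K4me1 fills ES for 22 of the 24, beside 70.6% of all distal regions, and EHF for fewer. The regions shown were chosen for their H3K27ac strength, so nothing is read from these counts.

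Regions near developmental genes were counted by lineage. The 14 gene lists held 231 genes of gastrulation lineages and signals, and 32 regions had one of these as the gene with the nearest end within 100 kb. They made up 3.77% (95% Wilson interval 2.68 to 5.27%) of the 849 distal regions so placed, against 5.41% of all distal regions within 100 kb of a gene end. The signalling list had 9 of 122, extraembryonic ectoderm and trophoblast 5 of 56, lateral plate and extraembryonic mesoderm 5 of 114, and nascent and paraxial mesoderm 3 of 53. Blood and endothelium had 2 of 54 and posterior Hox, Cdx and retinoic acid 2 of 45. There was 1 each for primitive streak (of 32), cardiac mesoderm (of 67), epiblast (of 53), neural ectoderm (of 117), surface ectoderm (of 60), definitive endoderm and node (of 50) and parietal endoderm (of 22). The visceral endoderm list had 0 of 8, where the interval reaches 32.4%. Hand1 counts in the trophoblast and lateral plate lists.

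**Figure D5:**
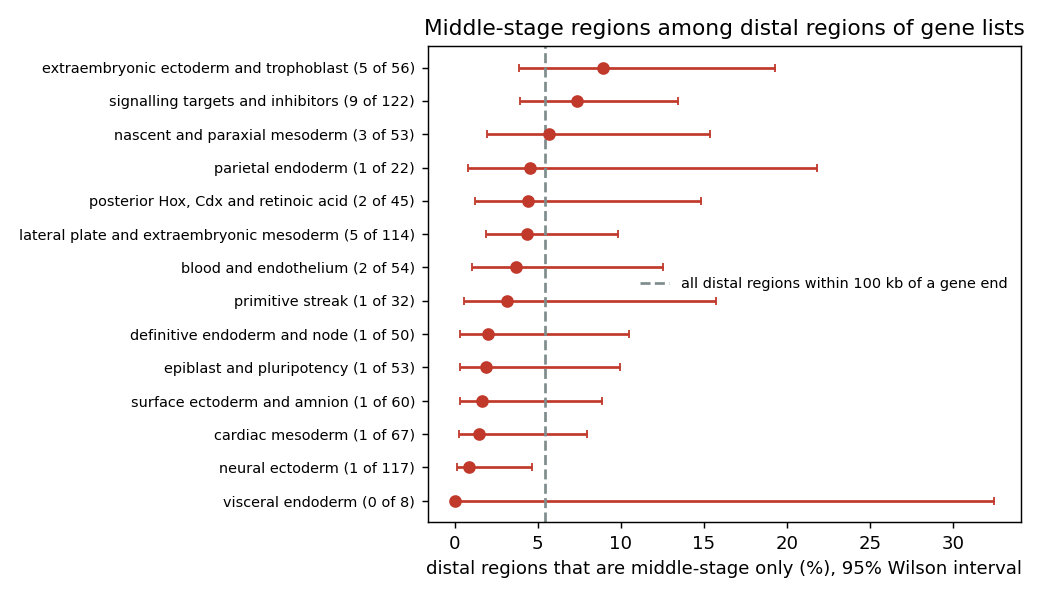
Share of distal regions nearest to genes of each list that were middle-stage regions (x axis, %, with 95% Wilson intervals; counts in brackets), one list per line. The dashed line is the share over all distal regions within 100 kb of a gene end, 5.41%. The intervals are wide, from 0.151 to 4.68% for neural ectoderm to 0 to 32.4% for visceral endoderm.

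Among ligand genes, Wnt7b had 4 regions of its 20 distal ones, spread over 46.8 kb, and no other listed gene had as many. Of the 20, 12 had H3K27ac peaks at all 5 stages. Over all distal regions within 100 kb of a gene end, 5.41% were middle-stage regions. The strongest of the 4 lay 18.6 kb from Wnt7b (chr15:85600407-85601422). It had H3K27ac folds of 7.88 at MS, 4.22 at LS and 4.85 at OB, and H3K4me1 from ES to EHF. Another, 31.5 kb away, had 4.07 at LS and 4.55 at OB, and one inside the gene 3.86 and 3.98. The weakest had 3.30 at MS, the lowest fold of that list, and 3.80 at LS. Wnt7b stands in the trophoblast list, whose cells were dissected away up to LS; the part of such cells in these values was not tested. Bmp7, a BMP ligand, had 2 regions inside the gene. One (chr2:172910709-172912139) had folds of 4.16, 6.38 and 4.27 at MS, LS and OB and H3K4me1 at all 6 stages, at Pre_PS with the lowest fold of the list. The other had 4.32 at LS and 3.25 at OB, the latter the lowest fold of its list.

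Of receptors and signal carriers, Fgfr1, an FGF receptor required as cells leave the streak, had an internal region (chr8:25563794-25564421) with folds of 4.24, 4.88 and 5.45 at MS, LS and OB. It carried H3K4me1 from ES to OB but not at EHF. Gli3, an effector of Hedgehog signals, had a region 29.1 kb away with 5.72, 4.65 and 3.73, and H3K4me1 at ES, LS, OB and EHF. Lef1, which takes Wnt signals to target genes, had an internal region (chr3:131156341-131156838) with 3.97 at LS and 4.15 at OB and H3K4me1 at ES and MS alone. Rxra, a retinoid receptor, had an internal one with 3.70 and 3.88. Pmepa1, an inhibitor of TGF-beta signals, had an internal region (chr2:173251175-173251661) with 4.61 at MS and 5.06 at LS. Regions near the feedback and target genes Hey1, Id2, Hes1, Etv4, Spry4 and Sfrp5 completed the signalling list; each of them had a percentile of at most 10.7 at its second stage.

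Among transcription factor genes, Evx1 of the posterior streak had a region 2.63 kb away (chr6:52310203-52310868) with folds of 3.92, 5.95 and 3.60 at MS, LS and OB, and H3K4me1 at ES, LS, OB and EHF. Snai1, which drives cells out of the epithelium, had one 8.60 kb away (chr2:167551417-167551855) with 3.83, 4.02 and 4.62, and H3K4me1 at ES, LS and OB. Tbx5 of the heart had an internal region with 4.53 at LS and 5.14 at OB, and Tbx3, a T-box repressor, one 46.2 kb away with 4.86 and 4.47. Runx1, needed for blood stem cells, had an internal region (chr16:92801504-92801956) with 3.67 at LS and 4.47 at OB, and it had H3K4me1 at these same stages alone. Foxd4, a forkhead factor, had a region 8.90 kb away with 4.73 and 4.26. Of the 32 regions near listed genes, H3K4me1 lay in 5 at Pre_PS, 22 at ES, 17 at MS, 26 at LS, 24 at OB and 16 at EHF, and none had H3K27ac at Pre_PS. Over all distal regions the H3K4me1 shares were 29.1, 70.6, 62.0, 71.8, 72.8 and 53.0% in that order, and 9.88% had H3K27ac at Pre_PS.

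The regions were spread thinly over genes. Within 100 kb, 1605 regions were nearest to 1458 genes, of which 1336 had 1 region, 101 had 2, 17 had 3 and 4 had 4. The genes with 4 were Arid1b, a subunit of the BAF chromatin remodeller (4 of 17 distal regions), Wnt7b, Grm4, a glutamate receptor (4 of 31), and Arhgef10l (4 of 41). Highest by share among those with 3 were Syk, a kinase of immune receptors (3 of 5), Gsg1l, an auxiliary subunit of AMPA receptors (3 of 6), Dok5 (3 of 9) and Vapb (3 of 9). Over all distal regions within 100 kb of a gene end the share was 5.41%. These genes were picked as the highest of 1458, so nothing is read from their shares. In the Arid1b gene, the strongest region (chr17:5052949-5053607) reached percentile 34.7, and the 4 lay between positions 5040546 and 5321801. Syk had no distal region with peaks at all 5 stages, nor had Gsg1l. Of the other genes named here, Dok5 had 2, Arid1b and Vapb 4 each, Grm4 and Arhgef10l 9 each, and Wnt7b 12.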

How the data were processed

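The data are 12 broad peak lists, 1 for each of 6 stages and 2 marks. Bowtie2, Picard, MACS2, deepTools and mm10 are named in the submitters' processing notes. Versions, settings, cell numbers and fragment totals were not given in the sources used, so depth was read from the weakest peaks. The deposited fold (a ratio) is taken as fragments over local background, as the peak caller's format has it. The deposited −log10 p and −log10 q are those of the authors' peak caller; the deposited score was not used. At the lowest peaks, pileup and background were solved on the assumption that fold = (pileup + 1)/(background + 1) and the Poisson p (tolerance 0.001 on −log10 p, pileups up to 20; 1 solution per list).

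Peaks on chromosomes 1 to 19 and X were merged where they overlapped or touched (Python 3.11.15, pandas 2.3.3, scipy 1.17.1). A mark was present where a peak overlapped a region by 1 bp or more. Gene ends were the outer ends of 21631 protein-coding RefSeq genes of GRCm38.p6; a region was given to the gene with the nearest end within 100 kb. Percentiles rank −log10 q within a list. Where a region held more than 1 peak of a list, that with the highest −log10 q was used. Intervals are 95% Wilson intervals and cover counting error only. The values within regions of 2 middle stages were added after the data were seen. Membership, distances and covered bases were tested on simulated data.

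The members and the 14 gene lists were chosen with earlier results of these data known. Regions named are the 10 with the highest second-best percentile over MS, LS and OB, the 15 highest near listed genes, the 8 genes with most regions, the 3 widest, and those nearest the 1 kb limit; 1 of the 10 is not reported here. Alternatives were the upper 50% of each list, no floor peaks (those at a list's lowest value), equal numbers of peaks (30072 for H3K27ac, 35646 for H3K4me1), 25% coverage, a 1 kb margin around ES and EHF peaks, merging within 500 bp, 5 kb to gene ends, all 3 middle stages, and no Pre_PS peak. For the H3K4me1 test they were also no Pre_PS library, covered bases, and other compared regions.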

Additional observations from a re-analysis of the deposited data

How the results depend on the processing

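The number of regions stayed between 1415 and 2048 in 7 of 9 alternatives. It was 450 with the upper 50% of each list and 347 with peaks at all 3 middle stages; the first also makes stages with weak peaks count as empty, and the second keeps part of the regions by construction. Without floor peaks, 1710 of the 1978 regions (86.5%) remained. With equal numbers of peaks 796 of the 1978 (40.2%) remained, and with the upper 50% of each list 4. A similar count therefore does not show that the same regions were kept. H3K4me1 at a middle stage moved from 89.7% to 96.4% with the upper 50%, 85.9% with equal numbers of peaks and 96.5% with all 3 stages. H3K4me1 at ES or EHF moved from 75.3% to 80.4% with the upper 50% and 84.4% with all 3 stages. H3K27ac at Pre_PS moved from 2.43% to 1.51% without floor peaks, 3.46% with equal numbers and 3.46% with all 3 stages. The share inside genes moved from 53.0% to 66.4% with the upper 50%, 57.2% with equal numbers and 50% over 5 kb from gene ends. The causes of these moves were not tested.

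The H3K4me1 difference between middle and outer stages turned from 4.07 to −1.42 points with covered bases (exact permutation p = 0.8) and to −1.17 against distal regions with peaks at 2 or 3 stages (exact permutation p = 0.7); the cause was not tested. In the other 10 alternatives it was positive, from 3.44 to 9.47 points, with exact permutation p from 0.1 to 0.4. No paired analysis was possible because each stage and mark has 1 library, and these p-values measure no spread between replicates.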

Other observations

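Groups of neighbouring regions were also counted. The same was not done for other distal regions, so the part of their density was not tested. With gaps of up to 50 kb, 1671 regions stood alone, 125 pairs and 15 groups of 3 were seen, and 3 groups had 4. Those with 4 were at Hvcn1, a proton channel gene, and its neighbour Tctn1 (28.4 kb on chromosome 5, 122219620 to 122248040), at Ulk4 (29.3 kb on chromosome 9, 121081397 to 121110646) and at Wnt7b (46.8 kb on chromosome 15). Groups of 3 included those at Irf8, a regulator of myeloid cells (39.2 kb), Uncx, a homeobox gene of the somites (91.4 kb), and Ece1, endothelin-converting enzyme (72.3 kb). These 3 were chosen from the 15 after their values were seen. The median distance between a region and its nearest neighbour was 296 kb.

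The share of distal regions that met the rule was similar over the chromosomes, from 4.95% on chromosome 17 to 6.42% on chromosome 9, with 5.04% on X; the 95% Wilson intervals of all 20 included 5.62%.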
